A study of Mus musculus with 11 samples.

Results

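The genes described here are 8 genes of caveolae, of the caveolar diaphragm and of sinusoidal capillarization: *Cav1*, *Cav2*, *Ehd2*, *Ehd4*, *Pacsin2*, *Plvap*, *Cd34* and *Emcn*. They were taken by name from the 29307 genes of the count table. All 8 passed the filter on low counts, among the 12905 genes tested. RNA was sequenced from hepatic sinusoidal endothelial cells (ECs) of 5 germ-free (GF) and 6 conventionally raised (CONV-R) mice. All were age-matched adult male C57BL/6J mice from the same colonies, on the same diet. The GF mice were kept in sterile isolators, and the CONV-R mice carried a specific-pathogen-free microbiota. Liver cells were enriched on beads for CD146 and then sorted as CD31+ CD105+ CD146+ cells, and their cDNA was amplified before library preparation. The paper reports fewer sorted ECs and less RNA from GF than from CONV-R livers, and a low viability of sorted cells. Yield thus differed along with the groups, and its part in the results was not tested. The deposited libraries hold no GF replicate 3, and the authors left out a GF sample that had significantly fewer mapped reads.

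Caveolae are flask-shaped pits of the plasma membrane, abundant in the endothelium of continuous capillaries. Caveolins build their coat together with the cavins, EHD ATPases and the F-BAR protein PACSIN2 shape and hold the neck, and PLVAP forms the thin diaphragm that spans caveolae and some fenestrae. Liver sinusoidal ECs instead have open fenestrae grouped in sieve plates and take up much of their cargo through clathrin. When they lose fenestrae and gain a basement membrane, in the change called capillarization, CD34 is a marker often used for it.

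The libraries held between 7242717 and 16164588 counts. Within this depth each member had from 59 counts, for *Ehd2* in one CONV-R library, up to 3407 counts, for *Emcn*. The 14 sinusoidal markers checked, such as *Stab2*, *Lyve1* and *Clec4g*, were all tested and summed to between 40384 and 56078 CPM per library (counts brought to one library size with TMM factors). None of them passed the edgeR test between the groups, 5 were higher in GF mice at an unadjusted p under 0.05, and DESeq2 called 1 as higher and limma voom 0. The share of all tested genes under that unadjusted p was not counted. Such counts, here and below, therefore have no background beside them. Leaving out CONV-R replicate 1 gave 1 call and leaving out GF replicate 5 gave 3. CONV-R replicate 3 stood apart from the other CONV-R libraries on the second principal component, at -48.1 against 6.01 to 17.6. Where leaving out 1 library changed a member's call, that library is named below. In bulk RNA such as this, fewer cells of a type and less RNA per cell cannot be told apart.

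Of the 8 members, 4 rose in GF mice and none fell (quasi-likelihood test of edgeR, p adjusted by Benjamini-Hochberg over all tested genes, threshold 0.05). *Cd34* and *Ehd2* rose by more than 2-fold, and *Cav1* and *Pacsin2* by less. *Cav2*, *Ehd4*, *Plvap* and *Emcn* did not pass the test. The count was 2 when CONV-R replicate 4, CONV-R replicate 5 or GF replicate 6 was left out. Markers of Kupffer cells and of portal and arterial ECs also rose in GF mice, 7 of 10 and 3 of 8. With the Kupffer marker mean as a covariate 0 members were called, and 83 of all tested genes. With the portal and arterial marker mean it was 1 member and 162 genes, so calls fell over all genes too. Over all tested genes, 7.48% were called with all libraries and no covariate, 4.80% as higher and 2.67% as lower in GF mice. The median Log2FC (log2 of GF over CONV-R) was 0.51 over the 8 members and -0.01 over all tested genes. Only *Cd34* had every GF library above every CONV-R library, which 3.22% of all tested genes had.

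**Figure D1:**
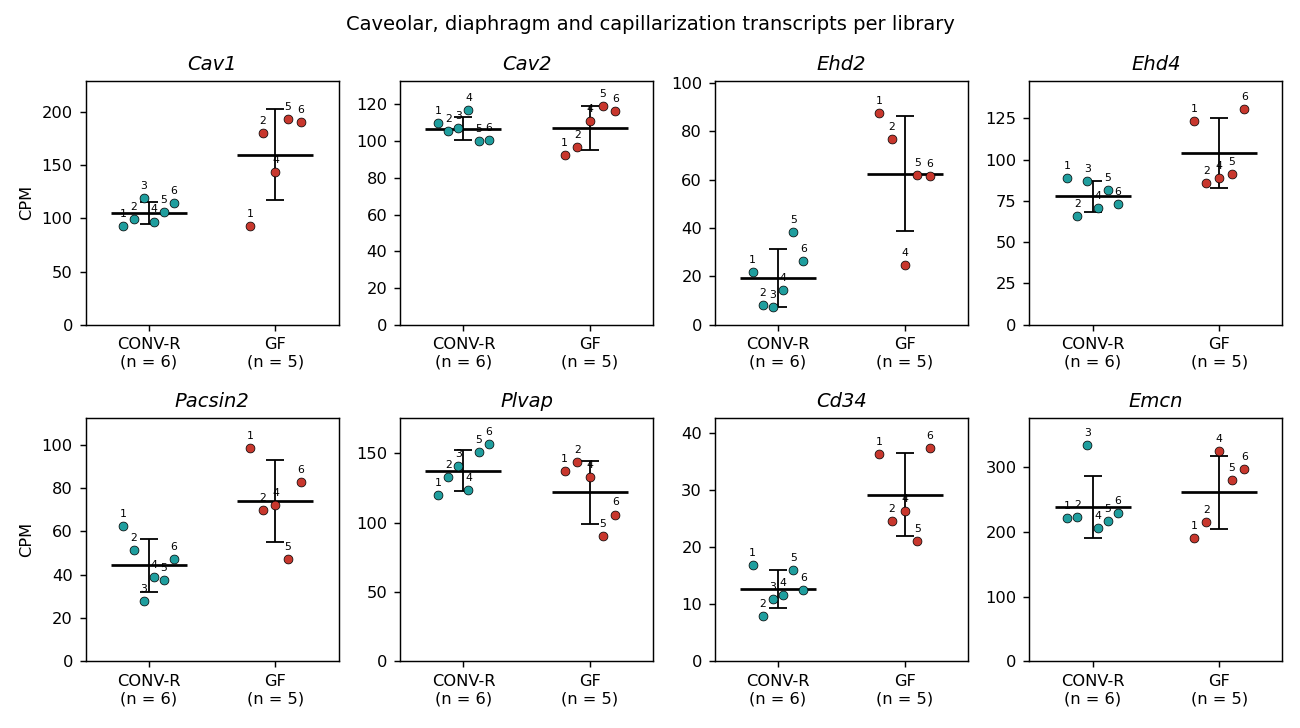
Level of each of the 8 members in every library, in TMM-scaled CPM on separate axes, with 6 CONV-R and 5 GF libraries as points and the mean with its SD. The groups do not overlap for *Cd34*, and *Cav1* has GF replicate 1 at 92.6 CPM, below all CONV-R libraries.

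*Cav1* and *Cav2* encode the 2 caveolins of non-muscle cells. Caveolin-1 is required for caveolae to form, and caveolin-2 joins it in hetero-oligomers. The genes are neighbours on the plus strand of chromosome 6 (GRCm38), *Cav2* at chr6:17281185-17289115 and *Cav1* at chr6:17306335-17341452, with 17219 bases between them. The sequences upstream of the annotated starts of *Cav1*, *Cav2* and *Ehd2*, and further on of *Cd34*, are shown because *Cav1* and *Cav2* are neighbours of which only *Cav1* passed the test, and *Ehd2* and *Cd34* had the highest Log2FC of the members. Each run holds the 250 bases before the start listed by RefSeq (GRCm38.p6), 5′ to 3′ along the gene's strand. Gene positions are those of GENCODE, whose starts can differ. The runs of *Ehd2* and *Cd34* thus reach into the gene as placed here. Capitals mark the GC box GGGCGG on either strand. *Cav1* is at chr6:17306085-17306334 and *Cav2* at chr6:17280935-17281184, both on the plus strand, and *Ehd2* is at chr7:15967536-15967785 on the minus strand.
Cav1: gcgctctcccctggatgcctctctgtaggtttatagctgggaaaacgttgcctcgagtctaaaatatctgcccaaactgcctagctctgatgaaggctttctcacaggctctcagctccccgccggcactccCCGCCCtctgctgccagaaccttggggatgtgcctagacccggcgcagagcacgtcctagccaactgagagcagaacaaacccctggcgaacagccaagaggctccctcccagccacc
Cav2: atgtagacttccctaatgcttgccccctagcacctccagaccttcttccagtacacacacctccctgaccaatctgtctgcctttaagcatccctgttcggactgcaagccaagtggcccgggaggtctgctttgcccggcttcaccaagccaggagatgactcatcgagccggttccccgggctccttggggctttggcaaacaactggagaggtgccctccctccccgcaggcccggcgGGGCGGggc
Ehd2: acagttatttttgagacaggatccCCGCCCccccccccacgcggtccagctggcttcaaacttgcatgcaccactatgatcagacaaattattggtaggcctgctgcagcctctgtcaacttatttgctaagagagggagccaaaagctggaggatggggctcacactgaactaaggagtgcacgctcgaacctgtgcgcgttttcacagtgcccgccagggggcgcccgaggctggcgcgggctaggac

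The 7 members found in the RefSeq table have 10 listed promoters, of which 5 held a GC box, each of them the first listed promoter of its gene, and those were of *Cav1*, *Cav2*, *Ehd2*, *Ehd4* and *Pacsin2*. The GC box was found in 32.7% of all 32851 promoters. It was in promoters of members that rose and of members that did not pass the test. The letters AGAACA, which make up a glucocorticoid receptor half-site, were in 1 of the 10, the first promoter of *Cav1*, and in 16.1% of all promoters. The GATA motif AGATAA was also in 1 of the 10, the third promoter of *Pacsin2*, and in 9.99% of all promoters. The E-box CACGTG and the ETS motif CCGGAA were in none of the 10, against 6.02% and 12% of all promoters. All motifs were searched on both strands.

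In CONV-R mice *Cav1* had a lowest value of 93.2 CPM, a median of 103 and a highest of 119. In GF mice it had 92.6, 181, 143, 193 and 191 CPM in replicates 1, 2, 4, 5 and 6. Thus 4 GF libraries lay above every CONV-R library and GF replicate 1 lay below them all. The mean rose from 105 ± 10.3 CPM (SD, n = 6) to 160 ± 42.8 CPM (SD, n = 5), with a Log2FC of 0.61 (SE 0.16, 95% interval 0.27 to 0.94) and an adjusted p of 0.0264 in edgeR. The call depended on which libraries were kept. With 1 library left out at a time the Log2FC stayed between 0.53 and 0.76, but the adjusted p passed 0.05 in 5 of 11 fits only. It was 0.0597, 0.0663 and 0.0533 without CONV-R replicates 2, 4 and 5, and 0.0631, 0.0526 and 0.0795 without GF replicates 2, 5 and 6 (edgeR). Calls over all genes fell from 965 to between 622 and 776 in these fits, but rose to 1260 without GF replicate 5. Without GF replicate 1, the library with the lowest *Cav1*, the Log2FC was 0.76 and the adjusted p 0.00117 (edgeR). With the Kupffer marker covariate the Log2FC was 0.49 (adjusted p = 0.613, edgeR), and with the portal and arterial covariate it was 0.90 (adjusted p = 0.0295, edgeR). In limma voom *Cav1* fell just outside the threshold (0.55, adjusted p = 0.0501).

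*Cav2* ran from 100 to 117 CPM in CONV-R libraries around a median of 106.5 CPM. The GF libraries were at 92.7, 96.9, 111, 119 and 116 CPM in replicates 1, 2, 4, 5 and 6. GF replicates 1 and 2 lay below all CONV-R libraries, GF replicate 5 above them, and the other GF libraries among them. The Log2FC of 0.01 had a 95% interval of -0.21 to 0.22, whose upper end is a 1.17-fold difference, and an adjusted p of 0.984 (edgeR).

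The ratio of *Cav1* to *Cav2* counts needs no scaling between libraries. In CONV-R mice it was 0.846, 0.939, 1.11, 0.832, 1.06 and 1.14 in replicates 1 to 6. In GF mice it was 0.999, 1.87, 1.29, 1.62 and 1.64 in replicates 1, 2, 4, 5 and 6. The ratio was above all CONV-R values in every GF library but replicate 1. The geometric mean was 0.98 in CONV-R and 1.45 in GF mice, a log2 difference of 0.56 (two-sided exact permutation test over 462 assignments, p = 0.0152, adjusted p = 0.0216 over 2 ratios). Without GF replicate 2 the log2 difference was 0.47 and the adjusted p 0.0524 in the same exact test.

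**Figure D2:**
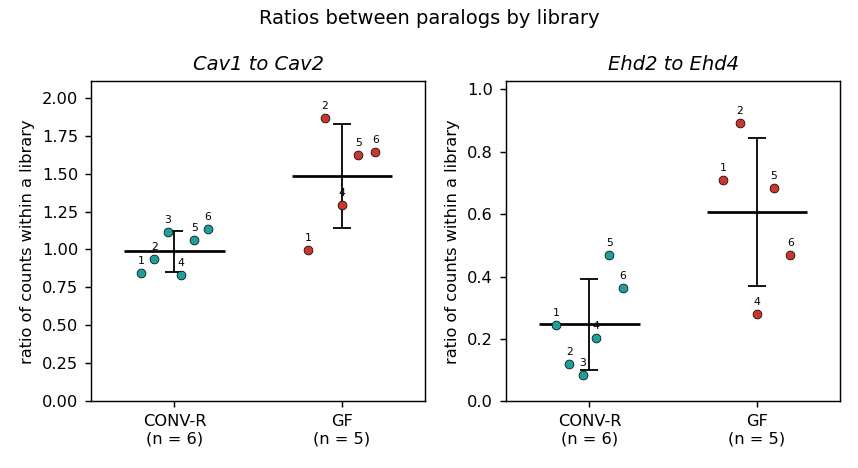
Ratio of counts of *Cav1* to *Cav2* and of *Ehd2* to *Ehd4* in each library, with the mean and SD of 6 CONV-R and 5 GF libraries. The *Cav1* to *Cav2* ratio reaches 1.87 in GF replicate 2 and the *Ehd2* to *Ehd4* ratio 0.893 in the same library.

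*Ehd2*, *Ehd4* and *Pacsin2* encode proteins of the caveolar neck. EHD2 is an ATPase that forms rings around the neck and keeps caveolae at the surface, EHD4 is its relative that also works in endosomal recycling, and PACSIN2 bends membranes through its F-BAR domain. *Ehd2* lies at chr7:15946958-15967567 on the minus strand. In the CONV-R libraries its level was 7.24 to 38.3 CPM and the median 18.0. In GF mice it had 87.6, 76.8, 24.8, 62.1 and 61.4 CPM in replicates 1, 2, 4, 5 and 6. Only GF replicate 4 fell within the CONV-R range. *Ehd2* rose 3.23-fold (Log2FC 1.69, SE 0.37, 95% interval 0.90 to 2.48, adjusted p = 0.0103 in edgeR), from 19.3 ± 12.0 CPM (SD, n = 6) to 62.6 ± 23.8 CPM (SD, n = 5). Its level varied more between mice of a group than that of the other members, with a coefficient of variation of 62.0% in CONV-R and 38.0% in GF mice. It passed the test in all 11 fits that left out 1 library, with a Log2FC of 1.52 to 2.00. It was called with neither marker covariate, at a Log2FC of 1.27 (adjusted p = 0.522, edgeR) with the Kupffer markers and of 1.05, or 2.07-fold, (adjusted p = 0.327, edgeR) with the portal and arterial markers.

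*Ehd4* (chr2:120089175-120154606, minus strand) ran from 66.1 to 89.0 CPM in CONV-R libraries around a median of 77.3. It had 123, 86.0, 88.6, 91.0 and 131 CPM in GF replicates 1, 2, 4, 5 and 6. In 3 of 5 GF libraries it was above all CONV-R libraries. The Log2FC of 0.42 (SE 0.14, 95% interval 0.13 to 0.70) did not pass after adjustment (adjusted p = 0.0725, edgeR), and DESeq2 put it just past the threshold at an adjusted p of 0.0492.

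The ratio of *Ehd2* to *Ehd4* was 0.244, 0.121, 0.0835, 0.202, 0.468 and 0.364 in CONV-R replicates 1 to 6. In GF replicates 1, 2, 4, 5 and 6 it was 0.711, 0.893, 0.280, 0.683 and 0.469. The lowest GF ratio, in replicate 4, lay within the CONV-R range. The geometric mean was 0.210 in CONV-R and 0.564 in GF mice, a log2 difference of 1.43 (two-sided exact permutation test, p = 0.0216, adjusted p = 0.0216). Without GF replicate 2 the log2 difference was 1.26 and the adjusted p 0.0524 in the same exact test.

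*Pacsin2* (chr15:83375607-83464606, minus strand) ran from 28.0 to 62.4 CPM in CONV-R libraries around a median of 43.2. GF libraries had 98.6, 69.6, 72.0, 47.3 and 82.6 CPM in replicates 1, 2, 4, 5 and 6. Only GF replicate 5 lay within the CONV-R range. *Pacsin2* rose 1.67-fold (Log2FC 0.74, SE 0.20, 95% interval 0.33 to 1.15, adjusted p = 0.0281 in edgeR). It passed in 7 of 11 fits that left out 1 library. The adjusted p was 0.0699 and 0.0645 without CONV-R replicates 4 and 5 and 0.0847 and 0.0737 without GF replicates 1 and 6, at Log2FC values of 0.61 to 0.70 (edgeR). With the Kupffer and the portal and arterial covariates the Log2FC was 0.35 and 0.28 and the adjusted p 0.835 and 0.738 (edgeR).

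*Plvap* encodes the protein of the stomatal and fenestral diaphragms and is at chr8:71497765-71511752 on the minus strand. CONV-R libraries held 120 to 156 CPM around a median of 137. GF libraries held 138, 144, 133, 90.4 and 106 CPM in replicates 1, 2, 4, 5 and 6. GF replicates 5 and 6 lay below all CONV-R libraries and the other GF libraries among them. The Log2FC was -0.17 (SE 0.13, 95% interval -0.44 to 0.10, adjusted p = 0.469 in edgeR), and it did not pass in any of the 11 fits that left out 1 library. In those fits the Log2FC ran from -0.23 to -0.08, the latter without GF replicate 5. *Gtpbp3* overlaps *Plvap* on the opposite strand and had 2153 counts over all libraries, against 16528 for *Plvap*. The strand setting of the counting was not given in the sources used here, so their reads cannot be told apart where they overlap.

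*Cd34* and *Emcn* encode sialomucins of the endothelial surface. CD34 is a marker of continuous capillaries and of capillarized sinusoids, and endomucin is a mucin of venous and capillary ECs. *Cd34* lies at chr1:194938819-194961279 on the plus strand. Its upstream sequence at chr1:194938571-194938820 held none of the motifs searched and had a GC content of 46.4%, against 59.6% for *Cav1* and 62% for *Cav2*.
Cd34: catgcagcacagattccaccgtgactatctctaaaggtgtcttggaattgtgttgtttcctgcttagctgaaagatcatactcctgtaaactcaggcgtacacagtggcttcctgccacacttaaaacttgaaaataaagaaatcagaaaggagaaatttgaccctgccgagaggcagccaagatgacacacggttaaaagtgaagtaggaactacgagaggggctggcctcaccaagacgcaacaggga

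*Cd34* had 7.99 to 16.9 CPM in CONV-R libraries and a median of 12.0 there. The GF libraries had 36.3, 24.6, 26.4, 21.2 and 37.3 CPM in replicates 1, 2, 4, 5 and 6. No GF library overlapped the CONV-R range. It rose 2.31-fold, from 12.6 ± 3.32 CPM (SD, n = 6) to 29.2 ± 7.24 CPM (SD, n = 5), with a Log2FC of 1.20 (SE 0.21, 95% interval 0.77 to 1.64) and an adjusted p of 0.00183 in edgeR. Leaving out any 1 library kept it past the threshold, with a Log2FC of 1.10 to 1.31. With the Kupffer marker covariate the Log2FC was 0.81 (adjusted p = 0.340, edgeR) and with the portal and arterial covariate 0.645 (adjusted p = 0.199, edgeR), so that *Cd34* was called with neither. The antisense gene *Gm16897* overlaps *Cd34* and had 313 counts, against 2453 for *Cd34*, and 2.14% of the 50-base windows of its transcripts are shared with other genes.

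*Emcn* (chr3:137341067-137432185, plus strand) was the member with the highest CPM. CONV-R libraries held 206 to 335 CPM, the median was 222 and the highest value was in replicate 3. GF libraries reached 191, 215, 324, 279 and 297 CPM in replicates 1, 2, 4, 5 and 6. The groups overlapped over most of their range. The Log2FC was 0.13 (95% interval -0.19 to 0.45, adjusted p = 0.658 in edgeR). With 1 library left out it ran from 0.04 without GF replicate 4 (adjusted p = 0.921, edgeR) to 0.25 without CONV-R replicate 3 (adjusted p = 0.257, edgeR).

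**Figure D3:**
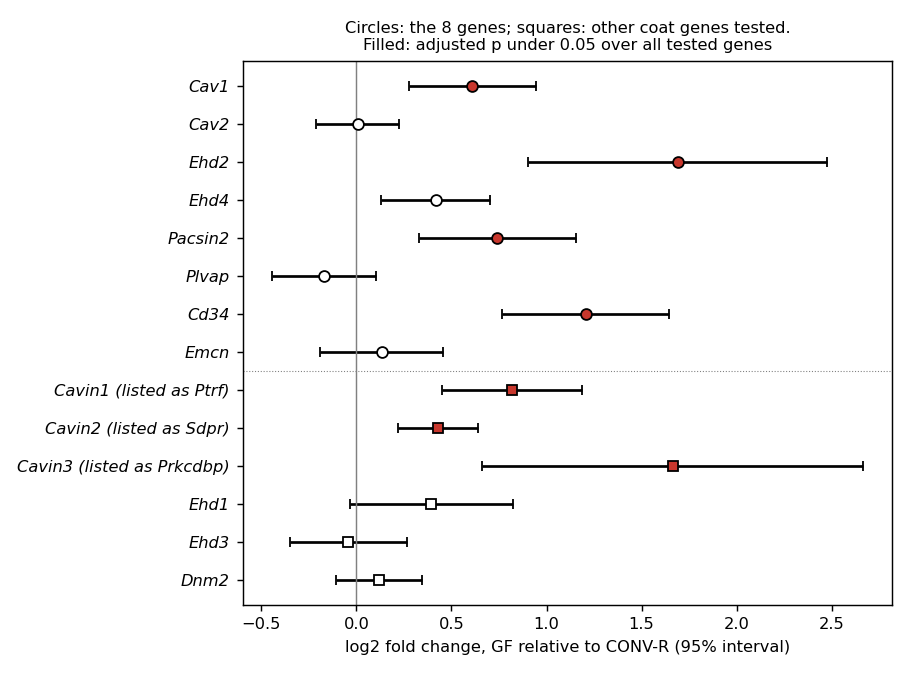
Log2FC of GF over CONV-R for each member, with its 95% interval from edgeR, where values above 0 are higher in GF mice. *Cd34*, *Ehd2*, *Pacsin2* and *Cav1* passed the adjusted threshold, and the interval of *Cav2* runs from -0.21 to 0.22.

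Levels of different genes were set side by side per length, as CPM per kilobase of exon. In CONV-R mice the order was *Plvap* at 69.2 ± 7.43, *Emcn* at 44.1 ± 8.85, *Cav2* at 32.0 ± 1.87, *Cav1* at 30.5 ± 3.00, *Ehd4* at 19.4 ± 2.33, *Pacsin2* at 9.02 ± 2.46, *Ehd2* at 3.78 ± 2.34 and *Cd34* at 1.73 ± 0.456 CPM per kilobase (SD, n = 6). The library ranges overlapped between *Plvap* and *Emcn*, *Cav2* and *Cav1*, *Pacsin2* and *Ehd2*, and *Ehd2* and *Cd34*. The other neighbours in the order did not overlap. In GF mice *Cav1* stood at 46.5 ± 12.4 and *Cav2* at 32.2 ± 3.55 CPM per kilobase (SD, n = 5), with overlapping ranges, so that *Cav1* came before *Cav2*. The only neighbours in the GF order without overlap were *Ehd4*, at 25.9 ± 5.33, and *Pacsin2*, at 15.1 ± 3.83 CPM per kilobase (SD, n = 5). *Cd34* stayed the lowest member in both groups, at 4.00 ± 0.994 CPM per kilobase in GF mice (SD, n = 5).

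**Figure D4:**
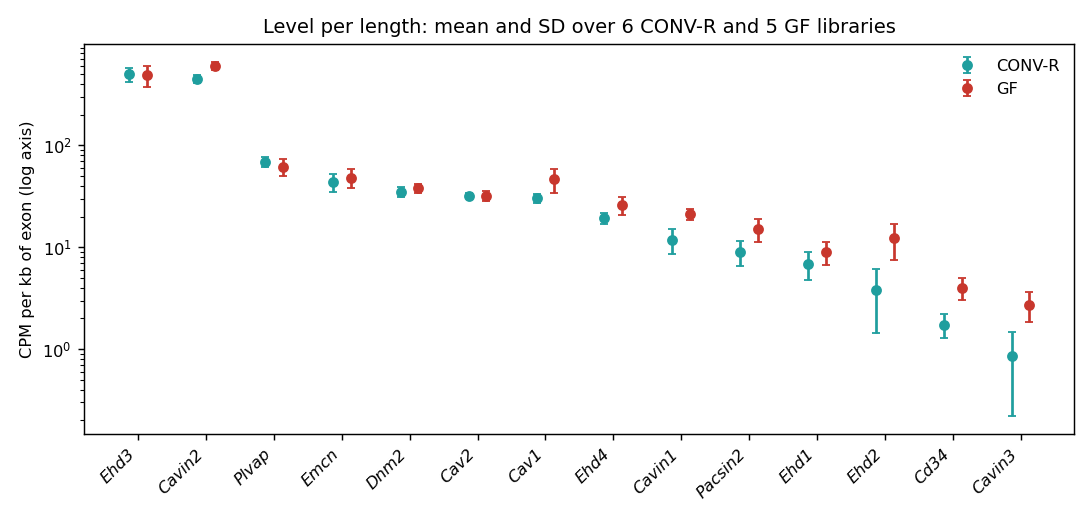
Mean level of the members and of other caveolar coat genes per kilobase of exon in CONV-R and GF mice, in CPM per kilobase on a log axis, with the SD. The members stretch from *Cd34* at 1.73 to *Plvap* at 69.2 in CONV-R mice, while *Ehd3* and *Cavin2* lie at 501 and 451.

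The other genes of the caveolar coat and neck were described from a list of 10, of which 6 were tested. *Cavin1*, *Cavin2* and *Cavin3*, listed in the table by their older symbols *Ptrf*, *Sdpr* and *Prkcdbp*, rose in GF mice, none fell, and the median Log2FC was 0.41. None of the 3 calls held with the Kupffer cell marker mean or the portal and arterial EC marker mean as a covariate, where *Cavin1* had Log2FC values of 0.52 and 0.45, *Cavin2* of 0.43 and 0.28, and *Cavin3* of 1.09 and 1.02. Cavins are the soluble coat proteins that bind caveolins, and cavin-1 is needed for caveolae in all tissues. *Cavin1* rose from 42.7 ± 11.9 CPM (SD, n = 6) to 75.3 ± 9.58 CPM (SD, n = 5), with a Log2FC of 0.82 (adjusted p = 0.00862, edgeR). *Cavin2*, whose mean was 1378 CPM in CONV-R and 1853 CPM in GF mice, rose with a Log2FC of 0.43 (adjusted p = 0.0139, edgeR). The groups did not overlap for either gene, and 3.22% of all tested genes had every GF library above every CONV-R library. *Cavin3* was the lowest of the 3, with a mean of 1.42 CPM in CONV-R and 4.54 CPM in GF mice. Its Log2FC was 1.66 (adjusted p = 0.0409, edgeR), and the adjusted p rose to between 0.0517 and 0.107 without any 1 of CONV-R replicates 2, 3, 4 and 6 and GF replicates 1, 4, 5 and 6. *Ehd1*, *Ehd3* and *Dnm2*, which codes for the dynamin that cuts vesicles from the membrane, had Log2FC values of 0.39, -0.04 and 0.12 and did not pass. The muscle caveolin *Cav3* had 0 counts in all libraries, and *Pacsin1*, *Pacsin3* and *Cavin4* had too few to be tested.

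The clathrin list is set beside it because sinusoidal ECs take up cargo that way. Of 14 coat and adaptor genes, all tested, none rose, and *Dab2*, the cargo adaptor of the clathrin coat, fell with a Log2FC of -0.60 (adjusted p = 0.00455, edgeR). *Dab2* went from 1886 ± 138 CPM (SD, n = 6) to 1241 ± 229 CPM (SD, n = 5) with no overlap, and the median Log2FC over the list was 0.15. The share of all tested genes with every GF library below every CONV-R library was not counted. At an unadjusted p under 0.05, 1 gene of the list was higher and 2 were lower, DESeq2 and limma voom called 0 as higher and 1 as lower, and leaving out GF replicate 5 gave 1 higher. Of all tested genes, 7.48% were called in edgeR, 2.67% as lower, and the share at that unadjusted p was not counted. *Dab2* was not called with either marker covariate (Log2FC -0.51 and -0.46). Whether the lists differ from each other was not tested.

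Among the 4 listed relatives of CD34 and other surface glycoproteins, 3 were tested and *Cd93* rose with a Log2FC of 0.44 (adjusted p = 0.018, edgeR). Without GF replicate 6 the adjusted p of *Cd93* was 0.0555 (edgeR), and with the marker covariates its Log2FC was 0.20 and 0.37 and it was not called. *Podxl*, a sialomucin of the CD34 family, had a Log2FC of 0.26 (adjusted p = 0.220, edgeR), and *Cd164*, another sialomucin, had 0.14. The list of genes of continuous or capillarized endothelium held 16 tested genes, of which 8 rose and none fell, with a median Log2FC of 0.72. With 1 library left out, between 5 (without GF replicate 6) and 9 of its genes rose. With the Kupffer cell marker mean as a covariate 1 of its genes was called, and with the portal and arterial marker mean 3. *Ly6c1*, an Ly6 surface protein of capillary ECs, rose from 2.91 to 26.2 CPM, *Sparcl1*, a matricellular protein, from 7.66 to 46.2 CPM, *Ly6a* from 283 to 552 CPM and *Fabp5*, a fatty acid carrier, from 25.6 to 50.7 CPM. The edgeR Log2FC values were 3.15, 2.57, 0.97 and 0.99. *Ly6c1* was called with both marker covariates. *Sparcl1* and *Fabp5* were called with the portal and arterial covariate but not with the Kupffer covariate (adjusted p = 0.220 and 0.0874, edgeR). *Ly6a* was called with neither, at Log2FC values of 0.79 and 0.42 (adjusted p = 0.392 with the Kupffer and 0.470 with the portal and arterial covariate, edgeR). *Fabp4* was not called with all libraries (0.39, adjusted p = 0.307, edgeR) but was without CONV-R replicate 3 (0.67, adjusted p = 0.00655, edgeR).

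**Figure D5:**
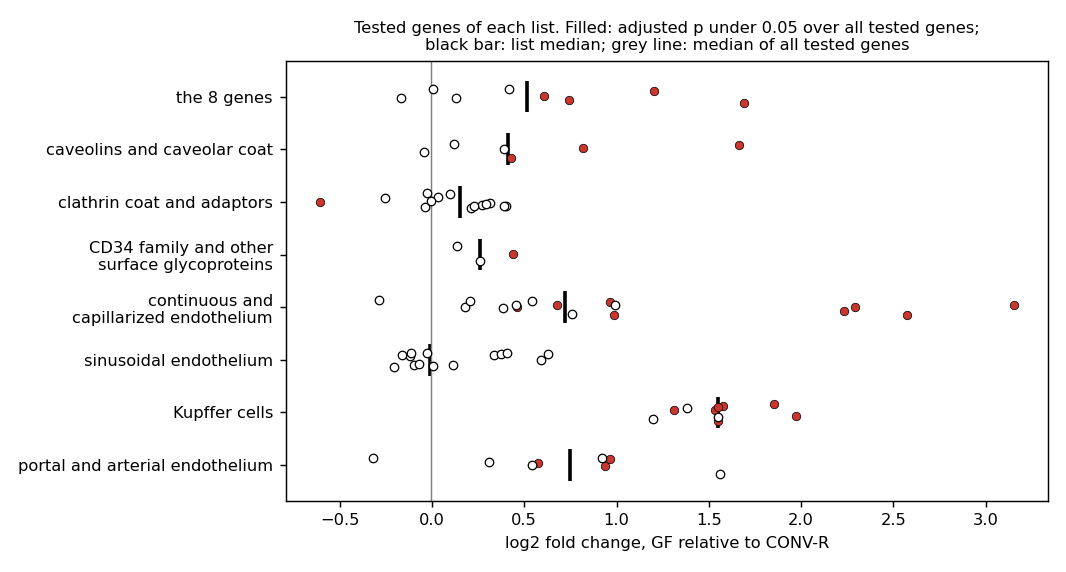
Log2FC of GF over CONV-R of each tested gene in the related lists, one point a gene, with the genes that passed the test marked and the median of the list drawn. The caveolar coat list has its median at 0.41, the clathrin list at 0.15, the list of continuous and capillarized endothelium at 0.72 and the sinusoidal list at -0.01.

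Markers of other cells moved with the groups too. Of 10 Kupffer cell markers, all tested, 7 rose in GF mice with a median Log2FC of 1.55. That count was 4 without any 1 of CONV-R replicates 2, 4 and 5, 3 without GF replicate 6, and up to 8 without other libraries. Their sum ran from 86.0 to 222 CPM in CONV-R libraries and from 197 to 931 CPM in GF libraries, with GF replicate 6 at the top and no marker at 0 in all libraries. Of 8 portal and arterial EC markers, all tested, 3 rose with a median Log2FC of 0.75 (2 to 5 with 1 library left out, 5 higher and 1 lower without GF replicate 5), and their sum ran from 1498 to 2060 CPM and from 1960 to 3687 CPM, with GF replicate 1 at the top. At an unadjusted p under 0.05, 6 of these markers were higher and 1 was lower. *Ly6a* is on this list and on that of continuous or capillarized endothelium, so it counts under both and is part of the portal and arterial mean. Of the other lists, 2 of 4 lymphatic EC, 9 of 10 hepatocyte, 3 of 10 stellate cell, 2 of 4 smooth muscle, 1 of 4 cholangiocyte and 4 of 8 lymphocyte genes were tested, and none of those tested passed the threshold in edgeR. At an unadjusted p under 0.05, 1 hepatocyte and 1 cholangiocyte gene were higher and 1 stellate cell and 2 lymphocyte genes lower in GF mice. DESeq2 and limma voom each called 1 stellate cell gene and 1 lymphocyte gene as lower. The 3 untested cholangiocyte genes had totals of 12 to 28 counts over the CONV-R libraries and 47 to 118 over the GF libraries. The summed cholangiocyte level was above all CONV-R libraries in GF replicates 1, 2 and 6 and within their range in the other two. The sums of the 6 lists in GF libraries were 8.68 to 14.2, 38.0 to 88.9, 53.3 to 86.6, 8.76 to 13.1, 0.286 to 22.1 and 3.57 to 5.62 CPM, and in CONV-R libraries 6.88 to 13.3, 29.8 to 71.6, 47.2 to 86.9, 6.02 to 9.37, 0.137 to 2.58 and 6.35 to 15.2 CPM. The part of these cells in the members' changes was not tested.

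As a description over 11 libraries with the group means removed, the Pearson r with the portal and arterial marker mean was 0.85 for *Cd34*, 0.81 for *Ehd4*, 0.67 for *Pacsin2*, 0.56 for *Ehd2*, 0.18 for *Plvap*, -0.41 for *Emcn*, -0.42 for *Cav2* and -0.61 for *Cav1*. With the Kupffer cell marker mean it was 0.56 for *Cd34*, 0.53 for *Ehd4*, 0.55 for *Pacsin2*, 0.37 for *Ehd2* and 0.20 for *Cav1*, and between -0.05 and -0.01 for *Cav2*, *Emcn* and *Plvap*. All these values share library and depth.

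Levels relative to the transcripts of the 3 proteins used for sorting, *Pecam1*, *Eng* and *Mcam*, are given as values, since the adjusted test could call no gene here. The smallest p that the two-sided exact permutation test allows is 0.00216, 484 of 12905 genes had it, and their adjusted p was 0.0577. The mean of the 3 sorting transcripts was 0.36 higher in GF mice on the log2 scale (two-sided exact permutation test, p = 0.0606). Relative to it, *Cd34* was 0.85, *Ehd2* 1.46 and *Pacsin2* 0.39 higher in GF mice on the log2 scale, with unadjusted p values of 0.00649, 0.0346 and 0.0238 in the exact permutation test. *Plvap* was 0.54 lower, with an unadjusted p of 0.0130 (exact permutation). *Cav1* and *Ehd4* had log2 differences of 0.21 and 0.05, and *Cav2* and *Emcn* of -0.35 and -0.23, with unadjusted p values of 0.519, 0.797, 0.102 and 0.398 in the same exact permutation test. With 1 library left out the difference ran from 0.016 to 0.45 for *Cav1*, -0.51 to -0.24 for *Cav2* and -0.38 to -0.066 for *Emcn*. The adjusted p values of the 8 members ran from 0.0871 to 0.854.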

How the data were processed

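RNA was sequenced from sorted hepatic sinusoidal ECs of 11 mice, 1 library each, as single reads of whole-transcript cDNA. The authors trimmed reads with Trim Galore, aligned them with STAR to mm10 (GRCm38) and counted them per gene. The annotation release and the strand setting are not given in the sources used here. The deposited counts are raw counts of reads per gene. The deposited log2 table holds values that the authors normalized across libraries, and it served only as an alternative. No further sample columns were present (0 unused).

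Counts were scaled by TMM and tested with edgeR 4.0.16 in R 4.3.3 (glmQLFit, glmQLFTest, filterByExpr, Benjamini-Hochberg over all 12905 tested genes, threshold 0.05). CPM are TMM-scaled. Exon lengths and positions came from the GENCODE annotation of GRCm38. Ratios and levels relative to the sorting markers used two-sided exact permutation tests. Libraries ranged from 7242717 to 16164588 counts, so precision was lowest for genes with few counts. The test was tried on simulated data first. Cage and litter are not given, so p-values measure the spread between these libraries.

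The 8 members and the gene lists were chosen with earlier results of these data known. Named genes were the members, up to 4 called genes with the smallest p from each related list, and the 3 genes most correlated with each called member. *Ehd1*, *Ehd3*, *Dnm2*, *Cav3*, *Cavin4*, *Pacsin1*, *Pacsin3*, *Podxl* and *Cd164* fall outside this rule and were named after their values were seen, to complete their lists, as were *Stab2*, *Lyve1* and *Clec4g* as examples of the sinusoidal markers and, for their values under alternatives, *Cltb*, *Fcho2*, *Ap2a1*, *Ap2a2*, *Ap2m1*, *Epn1*, *Eps15*, *Fabp4*, *Vwf* and *Esm1*. Outside the rule stand also the sorting markers *Pecam1*, *Eng* and *Mcam*, and *Gtpbp3* and *Gm16897*, which overlap a member. Alternatives were DESeq2 1.42.0, limma 3.58.1 with voom or on the log2 table, DESeq2 size factors, other filters, a robust fit, drawn-down counts, a replicate block, marker covariates and leaving out each library.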

Additional observations from a re-analysis of the deposited data

Results flagged for a closer look

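The level of *Emcn* in CONV-R replicate 3 was 334.8 CPM, and it stood far from the other 5 CONV-R libraries. The gap to the nearest of them was 0.818 of the whole range of the group, where Dixon's 95% critical value for 6 samples is 0.625. Of 20 groups examined 1 was flagged, and chance flags about 1 in 20.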

How the results depend on the processing

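Over all alternatives and left-out libraries, which made 23 fits and 184 fold changes of members, direction and side of the threshold were kept in 156, a call was lost in 18 and gained in 2. The unblocked counterpart of the block and the fit without CONV-R replicate 3 are the same fit, counted under both names. In the other 8, all of *Cav2*, which passed in no fit, the sign turned: it was -0.0072 in limma voom, -0.014 with no filter, and -0.035 to 0.054 with 1 library left out. DESeq2 called 1527 genes, *Ehd4* among them (Log2FC 0.42, adjusted p = 0.0492), and limma voom put *Cav1* just outside (0.55, adjusted p = 0.0501). With the Kupffer cell marker mean as a covariate 83 genes and 0 members were called in edgeR, with *Cav1* at 0.49, *Ehd2* at 1.27, *Pacsin2* at 0.35 and *Cd34* at 0.81. With the portal and arterial mean, a covariate chosen after seeing the data, 162 genes and 1 member were called, with *Cav1* higher than before at 0.90 (adjusted p = 0.0295), *Ehd2* at 1.05, *Pacsin2* at 0.28 and *Cd34* at 0.65 (0.645 before rounding). The covariate uses up a term in a fit of 11 libraries, and the cause of the lost calls was not tested.

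With 1 library left out, all-gene calls ran from 622 to 1260 and member calls from 2 to 4. The Log2FC ran from 0.53 to 0.76 for *Cav1* and from 0.61 to 0.86 for *Pacsin2*, and the log2 difference from 0.47 to 0.70 for the *Cav1* to *Cav2* ratio and from 1.16 to 1.68 for the *Ehd2* to *Ehd4* ratio.

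The labels do not say whether replicate numbers pair the mice. Same-numbered libraries deviated together with r of -0.014 to 0.20 over 5 pairs, and 2 GF libraries correlated best with their own number. These values do not settle it. With the replicate block 1101 genes were called, and *Ehd4* (0.43, adjusted p = 0.0327 in edgeR), *Eps15* of the clathrin list (-0.32, adjusted p = 0.0458 in edgeR) and *Fabp4* of the continuous and capillarized list (0.64, adjusted p = 0.00424 in edgeR) passed. Called as higher were then 5 portal and arterial markers, against 3, and 1 sinusoidal marker, against 0. The same libraries without the block gave 931 calls, with *Fabp4* (0.67, adjusted p = 0.00655 in edgeR) among them, but not *Ehd4* (0.45, adjusted p = 0.0602 in edgeR). The ratios gave 0.60 and 1.16 with the block (exact sign-flip permutation, adjusted p = 0.0625, the smallest possible with 5 pairs).

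Signs also turned for genes and differences that passed in neither fit. *Ehd4* relative to the sorting markers was -0.033 against *Pecam1* alone, and -0.056 to 0.17 with 1 library left out. With the Kupffer cell covariate *Dnm2* was at -0.038, *Cltb* at -0.014, *Fcho2* at 0.0039, *Podxl* at -0.071 and *Cd164* at -0.060. With the portal and arterial covariate *Ehd1* was at -0.073, *Dnm2* at -0.064, *Cltb* at -0.063, *Ap2a1* at -0.00036, *Fcho2* at 0.11, *Podxl* at -0.085, *Vwf* at -0.29 and *Esm1* at -0.57. *Fcho2* was at 0.015 on the authors' normalized values. With the replicate block *Ap2m1* was at -0.0025, and without it on the same libraries *Ap2m1* was at -0.0071 and *Ehd3* at 0.0026. With 1 library left out the ranges were -0.17 to 0.042 for *Ehd3*, -0.089 to 0.017 for *Ap2a2*, -0.075 to 0.11 for *Ap2m1*, -0.091 to 0.029 for *Epn1* and -0.060 to 0.056 for *Fcho2*.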

Other observations

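Within groups, members also varied together or apart over the 11 libraries, given here as Pearson r with the group means removed and as a description only, since all values share library and depth. Of 28 pairs, 8 had an r of 0.5 or more in size. Together varied *Ehd4* and *Cd34* (0.79), *Ehd2* and *Cd34* (0.60), *Cav1* and *Emcn* (0.55) and *Cav2* and *Emcn* (0.55). Apart varied *Cav2* and *Plvap* (-0.85), *Ehd2* and *Emcn* (-0.64), *Cav1* and *Pacsin2* (-0.60) and *Pacsin2* and *Emcn* (-0.53). The neighbours *Cav1* and *Cav2* had an r of 0.48.

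The genes whose log2 level over the 11 libraries was most like that of a member were, for *Cav1*, the transcription factor gene *Tcf15* (r = 0.91), *Pnp2* (0.91) and *Nr4a3* (0.91). For *Cd34* they were *Gvin1* (0.95), *Slc16a7* (0.95) and the endothelin receptor gene *Ednrb* (0.95). For *Ehd2* they were *Tspan13*, *Lmo7* and *Pak1* (each 0.96), and for *Pacsin2* *Fosl2* (0.99), *Tmem259* (0.97) and *Ap2b1* (0.96), an adaptor gene of the clathrin list. These values include the difference between the groups.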
